A study of Mus musculus with 38 samples.

Results

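Endothelial cells of the bone lining were compared with mesenchymal cells of the same niche in healthy mice, over 14 of the 38 libraries of the series. The 14 were chosen by their labels: 5 libraries of endothelial cells (C, L, M, N and O), 5 of stromal progenitors (C, L, M, N and O) and 4 of osteoprogenitors (L, M, N and O), the last 9 being the mesenchymal libraries. Of the 13260 genes in the table, 9952 were above 1 RPKM (read counts scaled by transcript length and library size) in at least 4 of the 14 libraries and were tested. All mice were C57Bl/KaLwRij and 8 to 10 weeks old when injected with phosphate-buffered saline as the vehicle. Tissue was taken when the experiment ended on day 23. The libraries of myeloma-bearing mice, used only for comparison, came from mice of this strain that received 5TGM1-GFP, a mouse myeloma line marked with green fluorescent protein. Bones were flushed, crushed and digested with collagenase, and each library was made from 100 sorted cells. All gates excluded CD45 and Ter119, the pan-leukocyte and erythroid surface markers. Endothelial cells were then gated on CD31. Stromal progenitors were gated on absence of CD31 and ALCAM and presence of Sca1. For osteoprogenitors the gate was absence of CD31 and Sca1 and presence of ALCAM. The sorted cells are mixtures of whatever passed a gate, and the sex of the mice is not given in the sources used here.

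Endothelial cells line blood vessels, control exchange and clotting, and in bone marrow form a sinusoidal and an arterial network that releases factors acting on blood stem cells and on bone. Their identity is kept by transcription factors of the ETS and SOX families and by receptors for vascular endothelial growth factor (VEGF), angiopoietins, Notch ligands and bone morphogenetic proteins (BMPs). Mesenchymal cells of the bone lining give rise to osteoblasts, cartilage cells and fat cells, and they secrete the collagen-rich matrix on which bone mineral is laid down.

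Reads on genes ranged from 14708562 to 27480008 in endothelial libraries, from 23159579 to 30768538 in stromal progenitors and from 13030025 to 21789966 in osteoprogenitors. The 50 genes with most reads held 18.4% to 22.1% of the reads in endothelial libraries, 39.2% to 41.5% in stromal progenitors and 32.1% to 37.5% in osteoprogenitors. Endothelial libraries had 6179.8 ± 1133.7 (SD, n = 5) genes above 1 RPKM and mesenchymal libraries 7676.4 ± 715.4 (SD, n = 9), a difference of -1496.6 genes (exact permutation test, two-sided p = 0.0130). Endothelial library L stood apart, with 4501 such genes and the lowest scaling factor of the 14 libraries (0.639), and without it the difference was -1076.9 (exact permutation test, p = 0.0364). Osteoprogenitor library N had the most genes, 8789, against 7660 to 7746 in the other osteoprogenitors.

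The genes of the sort were checked first, as they say how the gates worked and are not findings. Pecam1, which encodes CD31 (chromosome 11, 106654217 to 106750628 on GRCm38), was at 344, 542, 283, 331 and 212 RPKM in endothelial libraries C, L, M, N and O. In the 9 mesenchymal libraries it ran from 0.0812 to 2.19 RPKM with a median of 0.124. Ly6a, which encodes Sca1, ran from 2195 to 8769 RPKM in endothelial libraries, from 792 to 1933 in stromal progenitors and from 0.986 to 95.2 in osteoprogenitors. Alcam was at 1.97 to 8.02 RPKM in osteoprogenitors and at most 1.13 RPKM in the other 10 libraries. The 3 sort genes thus followed their gates where a gate was set. Ly6a was highest in endothelial cells, for which no Sca1 gate is given. Ptprc, which encodes CD45, was at most 0.0754 RPKM in all 14 libraries.

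The label of the endothelial libraries was then set against the marker genes chosen for it, Cdh5, Fabp4, Tek and Pecam1. Cdh5, the adhesion protein VE-cadherin of endothelial junctions (chromosome 8, 104101625 to 104144511), was at 231, 392, 221, 176 and 390 RPKM in endothelial libraries and between 0.0929 and 0.205 RPKM in the mesenchymal ones, with a median of 0.159. Tek, the angiopoietin receptor (chromosome 4, 94739289 to 94874976), was at 77.2, 348, 158, 144 and 158 RPKM against 0.0398 to 8.83 RPKM, the median being 0.059. Fabp4, a fatty acid carrier of capillary endothelium and fat cells (chromosome 3, 10204088 to 10208576), was at 9238, 17260, 20169, 13208 and 5211 RPKM against 2.72 to 47.2 RPKM with a median of 6.47. No endothelial library overlapped a mesenchymal library for any of the 4 genes. The log2 differences (endothelial minus mesenchymal, log2(RPKM + 1)) were 7.87 ± 0.57 (SE) for Cdh5, 6.87 ± 0.70 for Tek and 10.44 ± 0.56 for Fabp4, with adjusted p from 1.81e-10 to 9.95e-07 in limma.

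Mesenchymal markers were lower in endothelial cells in part. Prrx1 and Pdgfra, a transcription factor and a growth factor receptor of stromal progenitors, were lower in endothelial cells, and Pdgfra was at 0.0507 to 6.01 RPKM there against 13.3 to 75.6 RPKM in mesenchymal libraries. Lepr and Cxcl12, also markers of stromal progenitors, did not pass the test. The study lists Cxcl12 as enriched in endothelial cells and osteoprogenitors as well, and Lepr in osteoprogenitors. Of the osteoprogenitor markers chosen here, Bglap, Ibsp, Dkk1 and Alcam, the last a gene of the gate, were lower in endothelial cells. The other markers, Alpl, Sp7 and Runx2, did not pass.

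**Figure D1:**
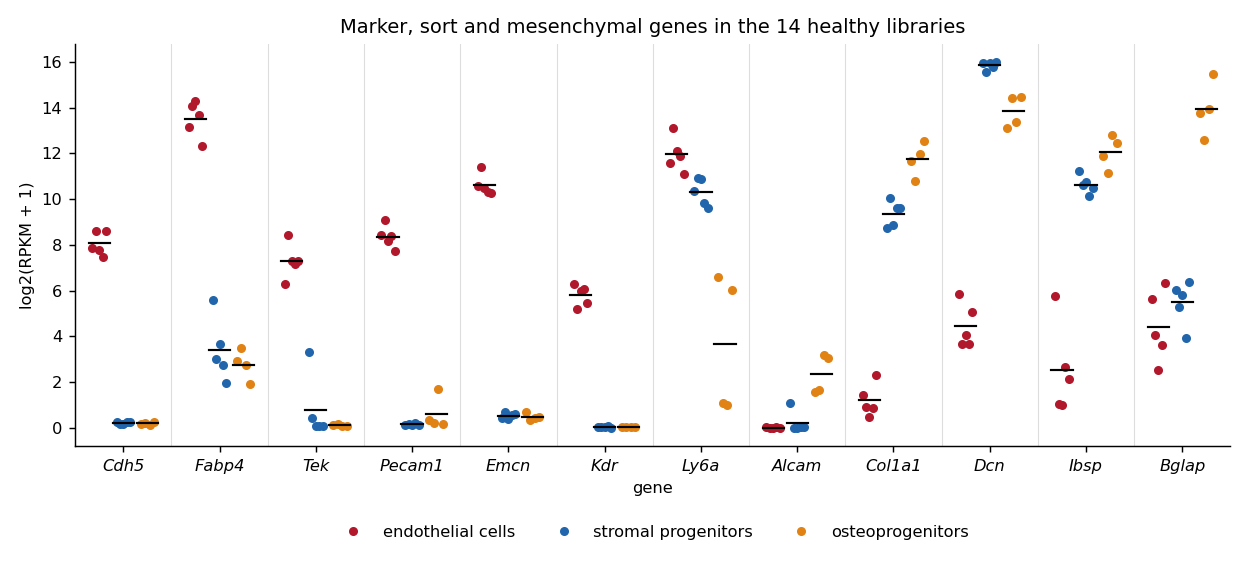
Levels of 12 marker genes on the log2(RPKM + 1) scale, 1 point per library and a bar at the mean of each cell type, for 5 endothelial, 5 stromal progenitor and 4 osteoprogenitor libraries. Cdh5, Fabp4, Tek, Pecam1, Emcn and Kdr were high in every endothelial library, Col1a1, Dcn and Ibsp in the mesenchymal libraries, Bglap in osteoprogenitors, and Ly6a in endothelial cells and stromal progenitors.

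Markers of other cells that a CD31 gate can hold were also measured. Of 9 tested mural cell genes (pericytes and smooth muscle), 6 were called higher in endothelial cells (Mcam, Kcnj8, Abcc9, Acta2, Myh11 and Tagln) and 1 lower (Cspg4, the pericyte proteoglycan NG2). The summed level of the mural list was 514 to 1158 RPKM in endothelial libraries, 21.5 to 353 RPKM in stromal progenitors and 32.8 to 128 RPKM in osteoprogenitors. Mcam is also made by endothelial cells, and it stands in the endothelial junction list too. Pdgfrb, the defining receptor of pericytes, was at 0 to 5.29 RPKM in endothelial libraries, and Cspg4 at 0.00717 to 2.29 RPKM. Adipoq, the fat cell hormone adiponectin, was at 487, 346, 152 and 501 RPKM in endothelial libraries C, M, N and O and at 0.0924 RPKM in L, while stromal progenitors reached 1.09 RPKM and osteoprogenitors 0.450 to 700 RPKM. Its call (log2 difference 3.62, adjusted p = 0.0885 in limma) was lost in 16 of the alternatives tried, and without endothelial library O, which gave the smallest difference among the endothelial libraries left out, the value was 3.06. The part of mural or fat cells in the endothelial results was not tested.

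Blood cell markers differed between lists and libraries. The summed erythroid level was at most 0.110 RPKM in endothelial libraries, and none of its 3 genes in the table passed the filter. Of 4 tested macrophage and osteoclast genes, Fcer1g, an adaptor of Fc receptors, was called higher in endothelial cells (295 to 1978 RPKM against 0 to 65.1 RPKM), and Ctsk and Acp5 were called lower. This list summed to 304 to 1980 RPKM in endothelial libraries, 103 to 663 in stromal progenitors and 257 to 442 in osteoprogenitors. Of 3 tested neutrophil genes Lcn2 was called lower. S100a8, a defining neutrophil gene, was at 4728 RPKM in stromal progenitor library L and at most 162 RPKM in the other 13 libraries. Of 7 neutrophil genes with values, 6 were above 1 RPKM in stromal progenitor library L and 5 in N. Their summed levels there were 7353 and 292 RPKM. Pf4, a platelet chemokine, was at 131, 165 and 224 RPKM in endothelial libraries C, N and O, at 0.194 and 0 RPKM in L and M and at most 0.156 RPKM elsewhere. Of the 2 tested megakaryocyte genes, 3 B and plasma cell genes and 4 lymphatic genes, 0, 2 and 2 were called, namely Prdm1 and Sdc1 (higher and lower) and Flt4 and Mmrn1 (both higher). Flt4 is made by sinusoidal as well as lymphatic endothelium, and Prox1, which defines lymphatic cells, is not in the table used here. Without endothelial library C, among others, Acp5 and Lcn2 lost their calls because the adjusted p no longer passed, at log2 differences of -2.27 and -2.95. Prdm1 and Mmrn1 were above 1 RPKM in few libraries, and without endothelial library C, N or O they did not pass the filter. Prdm1 also lost its call without osteoprogenitor library L, M or O (1.84 each) and with no filter on low values (1.92). The part of these cells in the results was not tested.

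Endothelial cells differed from mesenchymal cells at 2153 of 9952 genes (21.6%). A gene was called where its Benjamini-Hochberg adjusted p in limma was below 0.1 and its log2 difference was beyond 1, with both mesenchymal populations weighing alike. Of all genes tested, 791 (7.95%) were called higher and 1362 (13.7%) lower in endothelial cells, and the median difference over all genes was -0.31. For 310 genes (3.11%) every endothelial library was above every mesenchymal library, and for 353 (3.55%) every endothelial library was below. The balance of directions moved with the scaling. Higher genes made up 36.7% of the calls as deposited and 49.3% (1045 of 2119) after quantile normalization, which put the median of all genes at 0.05. Lower calls in endothelial cells are therefore read against the median of -0.31, and in bulk RNA fewer cells of a type and less RNA per cell cannot be told apart. Without endothelial library L there were 1899 calls, 784 of them higher and 1115 lower.

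**Figure D2:**
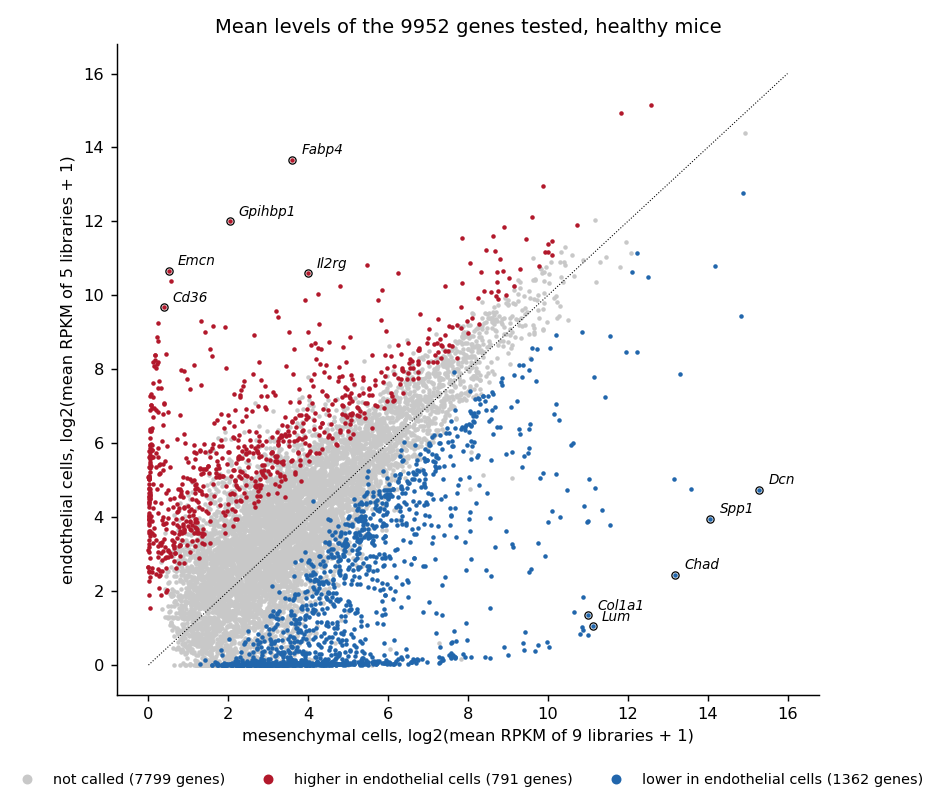
Mean level of each of 9952 genes in 9 mesenchymal libraries (horizontal, log2 of mean RPKM + 1) and in 5 endothelial libraries (vertical, same scale), in red for the 791 genes called higher in endothelial cells, blue for the 1362 called lower and grey for the 7799 not called. Fabp4, Emcn and Gpihbp1 lie far above the diagonal, and Dcn, Spp1 and Chad far below it.

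Endothelial libraries were less alike than mesenchymal ones. The distance between 2 libraries was taken as the root mean square of their 500 largest differences in log2(RPKM + 1). Its median was 6.34 between endothelial libraries (range 5.48 to 7.25), 5.10 between stromal progenitors, 4.83 between osteoprogenitors and 5.36 between stromal progenitors and osteoprogenitors. From an endothelial to a mesenchymal library the median was 6.90, and its range of 6.18 to 7.85 overlapped the range between endothelial libraries.

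The 10 genes with the largest differences among those whose libraries did not overlap were Fabp4, Emcn, Gpihbp1, Ctla2a, Cd36, Egfl7, Ecscr, Rbp7, Il2rg and Tfpi, with log2 differences from 8.24 to 10.44. Emcn, the sialomucin endomucin of capillary and venous endothelium, was at 1508, 2722, 1442, 1257 and 1219 RPKM in endothelial libraries and at 0.271 to 0.601 RPKM (median 0.372) in mesenchymal ones, a difference of 10.10 ± 0.52 (adjusted p = 9.73e-11 in limma). Gpihbp1, which anchors lipoprotein lipase to capillary endothelium, was at 3086, 3995, 3406, 6202 and 3815 RPKM against 1.63 to 5.17 RPKM with a median of 2.98, a difference of 9.98 ± 0.45 (adjusted p = 1.85e-11 in limma). Il2rg, the common chain of several interleukin receptors, was at 599 to 2774 RPKM in endothelial libraries, and in mesenchymal libraries at 0.288 to 94.2 RPKM with a median of 0.638. By level alone, the 5 highest genes of endothelial cells were B2m, Tmsb4x, Crip1, Fabp4 and Ifitm3, with means of 36262, 31548, 21406, 13017 and 7931 RPKM. Of these, Crip1, a small LIM protein, did not differ by the test (-0.13), and its sign changed with the scaling (0.73 after quantile normalization).

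The 10 genes lowest in endothelial cells by the same rule were Chad, Dcn, Spp1, Lum, Scrg1, Col1a1, 1500015O10Rik, Clec3a, Npy and Cilp, from -10.65 to -8.92. Dcn, the collagen-binding proteoglycan decorin, was at 57.3, 11.5, 15.8, 11.5 and 32.5 RPKM in endothelial libraries and at 8817 to 65121 RPKM (median 48981) in mesenchymal libraries, a difference of -10.39 ± 0.34 (adjusted p = 2.36e-13 in limma). Spp1, the mineral-binding matrix protein osteopontin, was at 12.6, 9.41, 6.29, 34.1 and 10.2 RPKM against 5136 to 30977 RPKM with a median of 16270, a difference of -10.05 ± 0.40 (adjusted p = 3.61e-12 in limma). Chad, Lum, Cilp, Clec3a and Scrg1 are matrix or cartilage genes and Col1a1 is the main collagen of bone, while Npy encodes a neuropeptide. The 5 genes with the highest mesenchymal means were Dcn, Crip1, Cst3, Cytl1 and Mgp.

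Promoters of 5 genes are printed to show the sequence upstream of genes at either end of the comparison, each being the 250 bases before a RefSeq start on GRCm38.p6, written 5′ to 3′ on the gene's strand. They were chosen after their motif matches were seen. Capitals mark AGGAAG or CTTCCT, the core recognised by ETS factors read on either strand, in Emcn (chr3:137340828-137341077, plus strand), Eng (chr2:32646345-32646594, plus strand) and Flt1 (chr5:147726012-147726261, minus strand). In Bglap (chr3:88384467-88384716, minus strand) and Spp1 (chr5:104434861-104435110, plus strand) they mark TGTGGT or ACCACA, the letters recognised by Runx factors. The Spp1 promoter also holds 2 ETS matches, left in lower case.
Emcn: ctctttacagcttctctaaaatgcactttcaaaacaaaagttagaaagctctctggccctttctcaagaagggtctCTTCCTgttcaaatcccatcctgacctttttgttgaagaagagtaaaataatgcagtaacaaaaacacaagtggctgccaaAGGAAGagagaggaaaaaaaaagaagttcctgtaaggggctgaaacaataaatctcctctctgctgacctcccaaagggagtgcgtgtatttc
Eng: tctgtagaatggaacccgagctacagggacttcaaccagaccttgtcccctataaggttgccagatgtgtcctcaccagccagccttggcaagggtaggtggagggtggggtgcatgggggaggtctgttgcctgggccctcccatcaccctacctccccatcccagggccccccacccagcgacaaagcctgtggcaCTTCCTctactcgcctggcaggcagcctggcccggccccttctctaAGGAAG
Flt1: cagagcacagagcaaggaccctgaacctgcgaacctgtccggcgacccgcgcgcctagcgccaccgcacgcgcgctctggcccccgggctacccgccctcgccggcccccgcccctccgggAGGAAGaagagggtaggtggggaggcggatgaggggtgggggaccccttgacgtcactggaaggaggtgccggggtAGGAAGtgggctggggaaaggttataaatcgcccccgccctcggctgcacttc
Bglap: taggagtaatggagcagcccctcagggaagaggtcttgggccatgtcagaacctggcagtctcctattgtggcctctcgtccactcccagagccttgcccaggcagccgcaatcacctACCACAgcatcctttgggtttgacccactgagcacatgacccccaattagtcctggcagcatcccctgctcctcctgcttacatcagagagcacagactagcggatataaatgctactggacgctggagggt
Spp1: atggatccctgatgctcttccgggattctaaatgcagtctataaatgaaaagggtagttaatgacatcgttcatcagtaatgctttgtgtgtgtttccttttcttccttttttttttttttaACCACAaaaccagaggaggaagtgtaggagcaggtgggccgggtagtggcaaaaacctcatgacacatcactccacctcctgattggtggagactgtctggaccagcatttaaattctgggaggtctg
The ends of the 2 motifs can share a letter, and 12 of the 1430 promoters that hold both have such overlapping matches. An ETS match was found in 32.6% of 829 promoters of genes called higher in endothelial cells (605 of the 791 genes had a promoter in the table), in 25.8% of 1335 promoters of genes called lower (1035 of 1362 genes), in 26.8% of promoters of genes not called and in 29.5% of all 32851 promoters of this length. A Runx match was found in 11.7%, 10.6%, 10.4% and 14%, respectively. Several promoters can belong to 1 gene, and these shares are descriptions.

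Genes were then grouped by function in 36 lists of 4 to 57 genes. Of their 907 entries 709 passed the filter and were tested. Few were tested in lists of other cells, such as erythroid (0 of 12), megakaryocyte (2 of 12), fat cell (2 of 11), neutrophil (3 of 14), B and plasma cell (3 of 14) and macrophage and osteoclast genes (4 of 18). Lists described next also lost members to the filter, among them those of endothelial transcription factors (22 of 29), Notch genes (15 of 19), class II genes (4 of 10), basement membrane genes (20 of 29), IGF genes (15 of 20), interferon response genes (44 of 55) and cell cycle genes (19 of 40). A gene made by a single cell type passes the filter only through that type, so the counts and medians over tested members are descriptions. They can be set against 7.95% higher, 13.7% lower and a median of -0.31 over all genes tested.

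Junction and surface proteins of endothelium had the highest median of all lists but that of the 4 endothelial markers (7.93). Of 24 tested, 21 were called higher in endothelial cells (Pecam1, the gene of the gate, among them) and 0 lower, with a median of 6.77 beside -0.31 for all genes, and for 21 of them the libraries did not overlap. Besides Emcn and Pecam1, they were led by Egfl7, a secreted regulator of vessel tubes (8.97), and Cldn5, the tight junction protein claudin-5 (8.05). Cldn5 was at 183 to 721 RPKM in endothelial libraries and at 0.0553 to 0.394 RPKM in mesenchymal libraries. The list also held Eng, Icam2, Robo4, Cd34 and Jam2.

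Of 17 tested genes of VEGF, angiopoietin and semaphorin signalling, 9 were called higher and 3 lower (median 2.53). The receptors Tek, Tie1, Kdr, Flt1, Flt4, Nrp1 and Plxnd1 were higher. Kdr, the main VEGF receptor, was at 78.3, 36.0, 63.1, 65.6 and 43.2 RPKM in endothelial libraries and at 0 to 0.0672 RPKM (median 0.0279) in mesenchymal ones, a difference of 5.77 ± 0.56 (adjusted p = 5.8e-07 in limma). Flt1, another VEGF receptor, whose promoter is printed above, differed by 5.52 ± 0.61. The 3 lower genes were ligands, Sema3c (-5.16), Sema3e (-4.09) and Vegfa (-2.4). Sema3c was at 0.019 to 0.0689 RPKM in endothelial libraries and at 3.76 to 125 RPKM in mesenchymal libraries, without overlap. The ligands Vegfc and Sema3f were higher in endothelial cells.

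Endothelial transcription factors followed the surface proteins, with 15 of 22 tested genes called higher, 0 lower and a median of 3.14. Sox18, a SOX factor of vessel development, was at 341, 490, 212, 271 and 357 RPKM in endothelial libraries and between 0.0381 and 0.29 RPKM in the mesenchymal ones (median 0.115), a difference of 8.17 ± 0.57 (adjusted p = 6.9e-09 in limma). Sox17 and Sox7, of the same subfamily, differed by 5.93 ± 0.59 and 5.01 ± 0.58. Hhex, a homeobox factor of blood and vessel precursors, differed by 5.27 ± 0.84 and ran from 6.59 to 458 RPKM in endothelial libraries. The ETS factors Ets1, Ets2, Fli1 and Elk3 were called higher as well. Erg and Etv2, also ETS factors, were not tested, as Erg did not pass the filter and Etv2 had no values.

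Of 21 tested genes of sinusoidal and venous vessels, 15 were called higher and 0 lower (median 3.40). It was led by Cd36, a fatty acid receptor (9.13), Tfpi, the inhibitor of tissue factor (8.24), Darc, now Ackr1, a chemokine-binding protein of venules (7.51), and Mrc1, the mannose receptor (6.33). Vcam1, an adhesion protein of marrow sinusoids, did not pass (2.39 ± 1.2, adjusted p = 0.20 in limma). It was at 144, 185, 116 and 221 RPKM in libraries C, M, N and O and at 0 in L, against 0.109 to 48.1 RPKM in mesenchymal cells.

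For the arterial list 20 of 23 tested genes were called higher and 2 lower (median 3.61), and without endothelial library L 16 were higher. It was led by Sox17, Kitl (5.24), Efnb2 (4.64) and Nrp1 (4.45). Efnb2, the ligand ephrin-B2 that marks arteries, was at 138, 182, 54.6, 117 and 89.7 RPKM in endothelial libraries and at 0.0181 to 9.95 RPKM (median 6.47) in mesenchymal ones. The 2 lower genes, Clu and Mgp, are secreted proteins that mesenchymal cells also make. Clu was at 124 to 434 RPKM in endothelial libraries and at 4570 to 21023 RPKM in mesenchymal libraries, and Mgp, an inhibitor of calcification, at 1220 to 2843 against 10620 to 39441 RPKM.

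The endothelial libraries held sinusoidal and arterial genes in unequal amounts. The mean log2(RPKM + 1) of the sinusoidal and venous list was 5.33 in library C, 6.16 in L, 4.48 in M, 5.97 in N and 5.73 in O, and that of the arterial list was 5.51, 5.52, 5.67, 5.04 and 5.90. Library M was thus lowest for the first list and N for the second. Stab2, a scavenger receptor of sinusoids named after its values were seen, was at 15.6, 185, 3.68, 23.8 and 84.7 RPKM, a range that was above every mesenchymal library (at most 0.0963 RPKM). Gja4, the arterial gap junction protein connexin 37 and also named after its values were seen, was at 22.3, 0.0338, 9.88, 58.7 and 170 RPKM. Vwf, the platelet-binding von Willebrand factor, was at 20.4, 10.5, 13.0, 0.00533 and 28.6 RPKM. Each library held 100 cells, and the number of cells of each vessel type was not measured.

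**Figure D3:**
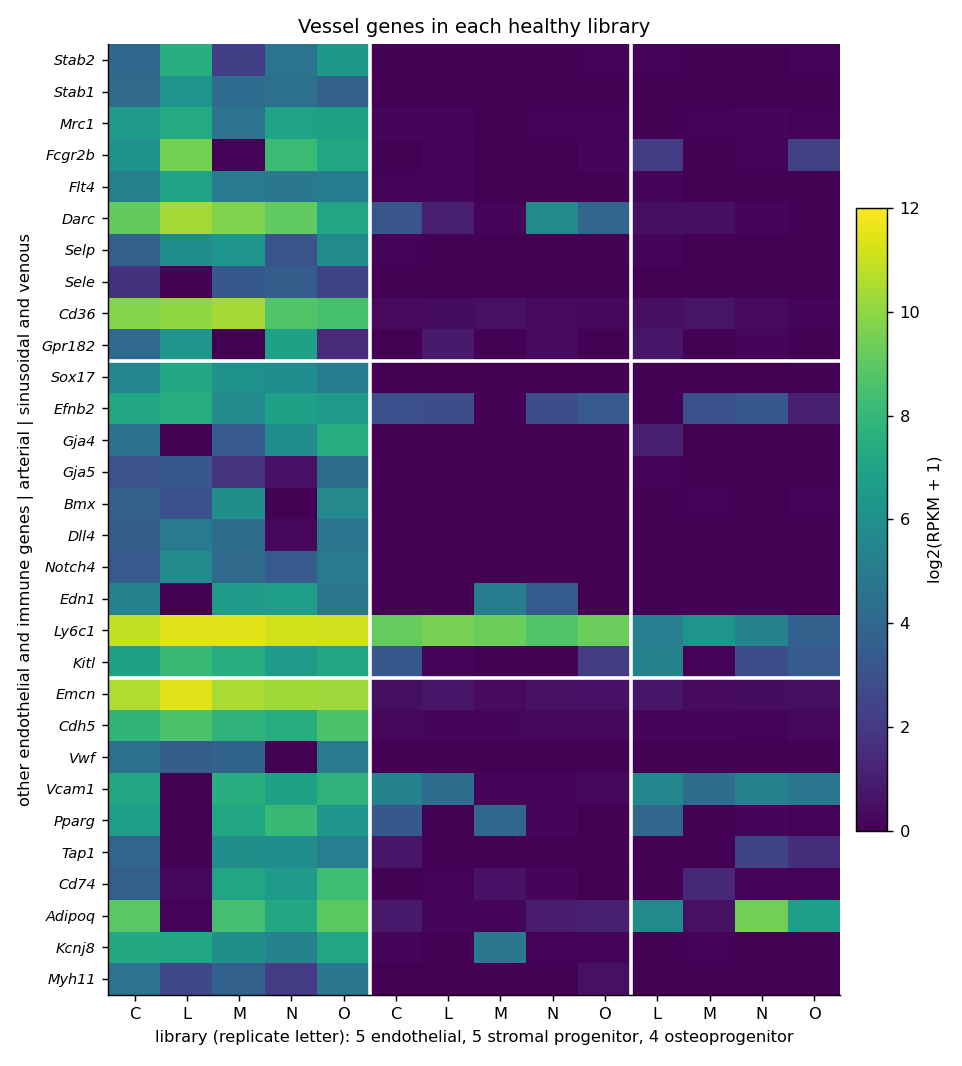
Heatmap of log2(RPKM + 1) for 30 genes (rows) in 14 libraries (columns): 10 sinusoidal and venous genes, 10 arterial genes and 10 others, with a colour bar for the level. Most vessel genes are bright (high) in the 5 endothelial columns and dark (low) in the others, in unequal amounts, and library L is at 0 for Vcam1, Pparg and Tap1.

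Of 23 tested genes of fatty acid uptake, caveolae and fenestrae, 16 were called higher and 0 lower (median 2.74). The 4 largest were Fabp4, Gpihbp1 and Cd36, already given, and Cd300lg, a surface protein of capillaries (7.41 ± 0.58). Cd300lg was at 126 to 353 RPKM in endothelial libraries and at 0.0371 to 0.145 RPKM in mesenchymal libraries. Pparg, the nuclear receptor of fat storage, was at 105, 141, 275 and 77.4 RPKM in libraries C, M, N and O and at 0 in L, and it differed by 4.35 ± 1.23 (adjusted p = 0.0195 in limma).

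Of 15 tested Notch pathway genes, 10 were called higher and 1 lower (median 2.85). The ligands Dll1 (4.52) and Dll4 (3.51), the receptor Notch4 (4.33), the modifier Mfng (4.21) and the target Nrarp (4.09) were higher. Dll4, the tip cell and arterial ligand, was at 10.5, 28.5, 17.9, 0.205 and 24.7 RPKM in endothelial libraries and at 0 in 8 of the 9 mesenchymal libraries, the other holding 0.0315 RPKM. Rbpj, the DNA-binding partner of Notch, was the lower gene (-2.23, adjusted p = 0.0858 in limma). Its call was lost without 9 of the 14 libraries left out in turn, for example at -1.84 without endothelial library L.

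Haemostasis genes split evenly, with 6 of 19 tested called higher and 6 lower (median -0.58). Higher were the anticoagulants Tfpi and Thbd and the ATP-degrading enzyme Entpd1 (7.30 ± 0.65), together with Vwf (3.32 ± 0.67), F8 and Mmrn1. Among the lower genes were Nt5e, the AMP-degrading ectoenzyme CD73 and a mesenchymal surface marker (-7.69 ± 0.57), the protease inhibitor Serpine2 (-5.27), the plasminogen activator Plat (-4.68), tissue factor F3 (-4.58) and Plaur. Thbd, thrombomodulin, was at 161 to 463 RPKM in endothelial libraries, 50.3 to 235 RPKM in stromal progenitors and 1.03 to 20.7 RPKM in osteoprogenitors. F3 was at 145 to 270 RPKM in osteoprogenitors, 0 to 7.92 RPKM in stromal progenitors and at most 0.0607 RPKM in endothelial libraries, so the initiator of clotting was high in the osteoprogenitors and its inhibitor Tfpi in the endothelial cells.

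Of 24 tested genes of vasoactive and chemoattractant signalling, 12 were called higher and 5 lower (median 1.90). The receptors for endothelin Ednrb (6.86), lysophosphatidic acid Lpar6 (6.57) and apelin Aplnr (5.79) and the calcitonin receptor-like receptor Calcrl (5.59) were higher. The prostacyclin synthase Ptgis (-6.18), the lysophosphatidic acid receptor Lpar1 (-5.11), the chemokine-scavenging receptor Cxcr7, now Ackr3 (-3.13), and Ramp1 (-2.87) were lower. Lpar6 and Lpar1 were thus called in opposite directions, Lpar6 at 6.6 to 377 RPKM in endothelial libraries against at most 0.781 RPKM, and Lpar1 at 0.0668 to 0.242 RPKM against 24.1 to 55.1 RPKM. Ramp1 lost its call without endothelial libraries L, M or O or osteoprogenitor library O, at -2.74 without the last of these.

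Of 18 tested genes of the class I antigen presentation pathway, 12 were called higher in endothelial cells and 1 lower (median 1.77). B2m, the invariant chain of class I molecules, was at 27609, 43481, 33557, 38677 and 37987 RPKM in endothelial libraries and at 2904 to 12935 RPKM (median 4743) in mesenchymal libraries, a difference of 2.64 ± 0.17 (adjusted p = 1.58e-09 in limma). Psmb9, an immunoproteasome subunit, was at 245, 78.9, 257, 330 and 439 RPKM against 0 to 26.8 RPKM with a median of 7.56, a difference of 5.45 ± 0.94. Psmb8, another such subunit, the peptide transporter Tap1 and the proteasome activator Psme1 differed by 3.63, 3.57 and 3.17. Psmb9 and Tap1 overlap at 1 end on GRCm38, and the strand of the reads is not stated, so reads there may be shared. Pdia3, a protein-folding enzyme, was the lower gene (-2.38). Of 4 tested class II genes Cd74, the class II invariant chain, was called higher (4.87 ± 1.02), at 11.6, 0.201, 137, 95.2 and 304 RPKM, so that library L was within the mesenchymal range of 0 to 1.62 RPKM. Class I heavy chain genes resemble each other, and the counting may have divided their reads.

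Of 44 tested interferon response genes, 25 were called higher and 2 lower (median 2.47). The largest were Gbp4, an interferon-induced GTPase (5.94 ± 0.67), Ifi27l2a (5.53 ± 1.00), Ly6e (4.91 ± 0.53) and Rtp4 (4.90 ± 0.95). Gbp4 was at 19.1, 87.6, 134, 61.3 and 142 RPKM in endothelial libraries and at 0.0101 to 2.26 RPKM in mesenchymal libraries. Dhx58, a sensor of viral RNA (-4.35), and Ifitm1 (-2.62) were the lower genes. Ifitm1 was at 18.8 to 101 RPKM in osteoprogenitors and at most 0.203 RPKM in the other 10 libraries, so its call came from osteoprogenitors alone, and its log2 difference from stromal progenitors was 0.17. Gbp, Ifitm and Ly6 genes have near-identical neighbours, and their reads may have been divided among copies.

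Of 19 tested genes of leukocyte adhesion and chemokines, 6 were called higher and 4 lower (median 1.05). Without endothelial library C 3 were higher, as without N. Icam2, a ligand of leukocyte integrins, was at 472, 578, 330, 932 and 498 RPKM in endothelial libraries and at 0.244 to 6.51 RPKM (median 1.62) in mesenchymal ones, a difference of 7.42 ± 0.62 (adjusted p = 6.5e-08 in limma). Selp, P-selectin, which captures rolling leukocytes, differed by 4.87 ± 0.65, and the T cell attracting chemokine Cxcl9 by 3.54 ± 0.96. Sele, E-selectin, was at 2.36, 9.02, 10.6 and 4.46 RPKM in libraries C, M, N and O and had 0 reads in L and in all 9 mesenchymal libraries. With the mesenchymal libraries taken at a floor of 3 reads each, its endothelial mean was at least 88.9-fold higher, a bound for counting error only. Cd44 (-4.96), Cxcl14 (-3.87), Il33 (-2.64) and Alcam (-1.29) were lower. Il33, an alarmin, was at 0.258 to 230 RPKM in stromal progenitors and at most 0.0328 RPKM in the other 9 libraries. Its call was lost without any 1 of the endothelial libraries, with values of -2.65 to -2.64.

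Of 20 tested basement membrane genes, 9 were called higher and 3 lower (median 1.94). Col4a1 and Col4a2, the main collagen chains of vessel basement membrane, were at 146 to 826 and 175 to 446 RPKM in endothelial libraries against 1.06 to 46.5 and 7.69 to 50.3 RPKM, differences of 4.61 ± 0.56 and 3.79 ± 0.49 (adjusted p = 8.97e-06 and 1.66e-05 in limma). The collagen receptor Itga1 (4.41) and the linker Nid1 (3.34) were higher, as were the laminin chains Lama4, Lama5 and Lamb1. Among the lower genes were Lama2, a laminin chain of muscle and stroma (-2.71), and Sparc (-2.02). Sparc, a collagen-binding protein, was still at 786 to 2241 RPKM in endothelial libraries.

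The matrix of bone and cartilage was the mesenchymal side of the comparison. Of 22 tested fibrillar and associated collagens, 0 were called higher in endothelial cells and 20 lower, with a median of -4.28. Col1a1, the main collagen chain of bone (chromosome 11, 94936224 to 94953042), was at 1.71, 0.872, 0.373, 0.831 and 3.95 RPKM in endothelial libraries, 428 to 1048 RPKM in stromal progenitors and 1798 to 5918 RPKM in osteoprogenitors, a difference of -9.36 ± 0.43 (adjusted p = 2.13e-11 in limma). The cartilage collagens Col2a1 (-8.04) and Col11a1 (-6.61) and the microfibrillar Col6a1 (-6.54) followed. Col4 chains and these collagens were thus called in opposite directions.

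Of 55 tested genes of other matrix proteins and their processing, 44 were called lower and 4 higher (median -3.76), and for 29 of them every endothelial library was below every mesenchymal one. Dcn, Lum (-9.90) and Fmod (-8.85) are leucine-rich proteoglycans that bind collagen, and Pcolce2 (-8.33) enhances procollagen cleavage. The 4 higher genes were Eln (3.69), Fbln5 (3.61), Fbln2 (2.31) and Plod1 (2.0), a share close to the 7.95% of all genes. Eln, Fbln5 and Fbln2 are elastic fibre genes and Plod1 is a lysyl hydroxylase. Other elastic fibre genes of the list were called lower, among them Efemp2, Mfap5, Lox and Loxl1. Eln, elastin, was at 19.3 to 60.8 RPKM in endothelial libraries and at 0 to 40.3 RPKM in mesenchymal ones.

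Of 35 tested transcription factors of the skeletal lineages, 16 were called lower and 1, Pparg, higher (median -1.49). Sox9, the cartilage factor, was at 0.0275 to 0.0994 RPKM in endothelial libraries and at 36.2 to 280 RPKM in mesenchymal ones, a difference of -7.02 ± 0.52. Prrx2, a homeobox factor of limb mesenchyme, had 0 reads in all 5 endothelial libraries and 18.0 to 70.7 RPKM in mesenchymal libraries. At the floor of 3 reads per endothelial library its level was at least 339-fold lower in endothelial cells. Dlx5 (-4.59) and Tbx15 (-4.20) were next. The defining osteoblast factors Runx2 (-1.88 ± 0.79, adjusted p = 0.122) and Sp7 (-1.30 ± 0.54, adjusted p = 0.118) did not pass in limma. Runx2 was at 5.48 and 6.38 RPKM in endothelial libraries C and O and at most 0.0133 RPKM in L, M and N.

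Of 29 tested osteoblast and mineralization genes, 19 were called lower and 2 higher in endothelial cells (median -2.93). Spp1, Ibsp (-8.84), Tnfrsf11b, the decoy receptor osteoprotegerin (-8.17), and Omd, osteomodulin (-8.01), were the lowest. Bglap, the bone hormone and matrix protein osteocalcin whose promoter is printed above, was at 48.0, 15.4, 4.79, 11.3 and 79.2 RPKM in endothelial libraries, 14.1 to 82.3 RPKM in stromal progenitors and 6211 to 45659 RPKM in osteoprogenitors, a difference of -5.29 ± 0.63 (adjusted p = 5.86e-06 in limma), which lost its call with voom on recovered reads (-5.42). Bglap and Bglap2 are near-identical copies, and their reads cannot be assigned with certainty. The 2 higher genes were Spns2, a sphingosine phosphate transporter (3.37), and Lifr, a cytokine receptor (1.62, adjusted p = 0.0646 in limma). Lifr lost its call without endothelial library C (1.59) or L (1.28) or osteoprogenitor library M (1.47).

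Of 30 tested stromal receptors and surface proteins, 18 were called lower and 2, Ly6a and Lifr, higher (median -2.37). Nt5e, Pdgfrl (-7.12), Fap, the fibroblast activation protein (-5.78), and Itgbl1 (-5.21) were the lowest. All 14 tested cartilage genes were called lower (median -5.05), and the summed level of that list was 3.86 to 87.6 RPKM in endothelial libraries, 11425 to 18000 RPKM in stromal progenitors and 8161 to 11891 RPKM in osteoprogenitors. The mean log2(RPKM + 1) of the list went the other way between the mesenchymal populations, at 4.60 in stromal progenitors and 7.24 in osteoprogenitors. Both mesenchymal populations of the bone lining thus held cartilage transcripts such as Chad, Comp (-7.91) and Col2a1 beside bone transcripts.

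Of 23 tested proteases and inhibitors, 10 were called lower and 1 higher (median -2.04), and without endothelial library L 3 were higher. The matrix metalloprotease Mmp3 (-7.20), the collagen-degrading cathepsin Ctsk (-6.31) and the serine protease Htra3 (-6.17) were lower, and Adamts1, which cleaves proteoglycans, was higher (3.06). Ctsk was at 0.818, 0.307, 0.115, 0.254 and 141 RPKM in endothelial libraries, so library O was within the mesenchymal range of 70.9 to 537 RPKM.

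Of 23 tested factors that support blood stem cells in the marrow niche, 5 were called higher and 3 lower (median -1.19), the latter a share close to the 13.7% of all genes, and without stromal progenitor library L 5 were lower. Kitl, stem cell factor, was at 117, 284, 188, 97.8 and 145 RPKM in endothelial libraries and at 0.0168 to 40.2 RPKM (median 3.35) in mesenchymal libraries, a difference of 5.24 ± 0.83 (adjusted p = 0.000165 in limma). All endothelial libraries were above all mesenchymal ones. Cxcl12, the chemokine that retains blood stem cells, was at 205, 202, 407, 137 and 472 RPKM in endothelial libraries and at 7.39 to 396 RPKM with a median of 122 in mesenchymal ones, and the groups overlapped (1.24 ± 0.73, adjusted p = 0.275 in limma). Lepr, a receptor that marks stromal niche cells, was at 0.0922 to 38.9 RPKM against 7.5 to 48.9 RPKM (-0.88 ± 0.87, adjusted p = 0.550 in limma), and Angpt1 did not pass either (-1.21, adjusted p = 0.178 in limma). The other higher genes were Dll1, Pdgfb, the growth factor that recruits mural cells (4.43), Dll4 and Jag1, and the lower genes were Spp1, Tnfrsf11b and Igf1 (-3.10).

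The study took up BMP signalling, and its list was used here without its results and without its entries Cerl and Cerr1. Of 35 tested genes, 5 were called higher and 9 lower in endothelial cells (median -1.03). The higher genes were the endothelial receptors Eng (5.37 ± 0.75) and Acvrl1 (2.4 ± 0.58), the activin receptor Acvr2b (3.47 ± 0.76) and the target genes Id1 (2.24 ± 0.39) and Id3. Eng, endoglin, whose promoter is printed above, was at 134, 289, 81.0, 129 and 121 RPKM in endothelial libraries and at 0.0519 to 14.5 RPKM (median 2.36) in mesenchymal ones. Id1, an inhibitor of differentiation factors, was at 498, 1655, 2032, 2042 and 1668 RPKM against 147 to 533 RPKM with a median of 302, and library C overlapped the mesenchymal range. Among the lower genes were Tnfrsf11b, the ligand Bmp2 (-4.40 ± 0.77), the extracellular modulators Twsg1 (-3.78) and Chrdl1 (-3.36), the protease Bmp1, the receptor Bmpr1a and the target Id2. Bmp2 was at 0.781, 0.0679, 3.60, 34.7 and 0.0819 RPKM in endothelial libraries and at 41.1 to 137 RPKM in mesenchymal libraries. The study chose this list with these libraries at hand, so its counts are no independent evidence of a direction.

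Of 15 tested genes of insulin-like growth factor (IGF) signalling, 4 were called higher and 4 lower. The median of -0.38 changed sign to 0.61 after quantile normalization and to 0.18 without endothelial library L. The binding proteins differed among themselves. Igfbp3 was at 84.3, 295, 125, 24.1 and 396 RPKM in endothelial libraries and at 0.0188 to 30.6 RPKM with a median of 0.156 in mesenchymal ones, 5.47 ± 0.93 (adjusted p = 0.000345 in limma). Igfbp4 was higher (2.16 ± 0.69), and it lost its call without endothelial library O (1.81). Igfbp6 was at 43.1, 2.34, 4.21, 7.92 and 11.2 RPKM against 149 to 4042 RPKM with a median of 2452, -6.87 ± 0.54 (adjusted p = 3.22e-08 in limma), and Igfbp5 was lower too (-2.74 ± 0.63). Stc1, a secreted glycoprotein hormone, was higher (3.33), and Htra1, a secreted serine protease, was lower (-4.51). The insulin receptor Insr (2.30, adjusted p = 0.0903 in limma) lost its call without 9 of the 14 libraries, for example at 2.06 without endothelial library N.

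Of 37 tested genes of the secretory pathway of the endoplasmic reticulum, 18 were called lower, 0 higher and 19 were not called (median -1.43). Kdelr3, a retrieval receptor of the Golgi, was at 0.0665 to 0.262 RPKM in endothelial libraries and at 98.8 to 517 RPKM in mesenchymal ones, a difference of -7.58 ± 0.49. The coat subunits Sec24d (-4.22) and Sec23a (-3.34), which carry procollagen, and the collagen regulator Creb3l1 (-3.22) followed. Of 48 tested ribosomal protein genes, Rps14 was the only call (1.17, adjusted p = 0.0229 in limma, median of the list 0.43), and it lost its call without endothelial library L (0.82). With scaling by plain library totals 7 ribosomal genes were higher, and without endothelial library C 5 were. Of 19 tested cell cycle genes, the replication gene Mcm3 was called higher (4.27) and the mitotic gene Ube2c lower (-1.64). The median of that list was -0.55, and 0.04 after quantile normalization. The call of Ube2c rested on osteoprogenitors, at 3.74 to 19.3 RPKM against at most 0.321 RPKM in the other 10 libraries.

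**Figure D4:**
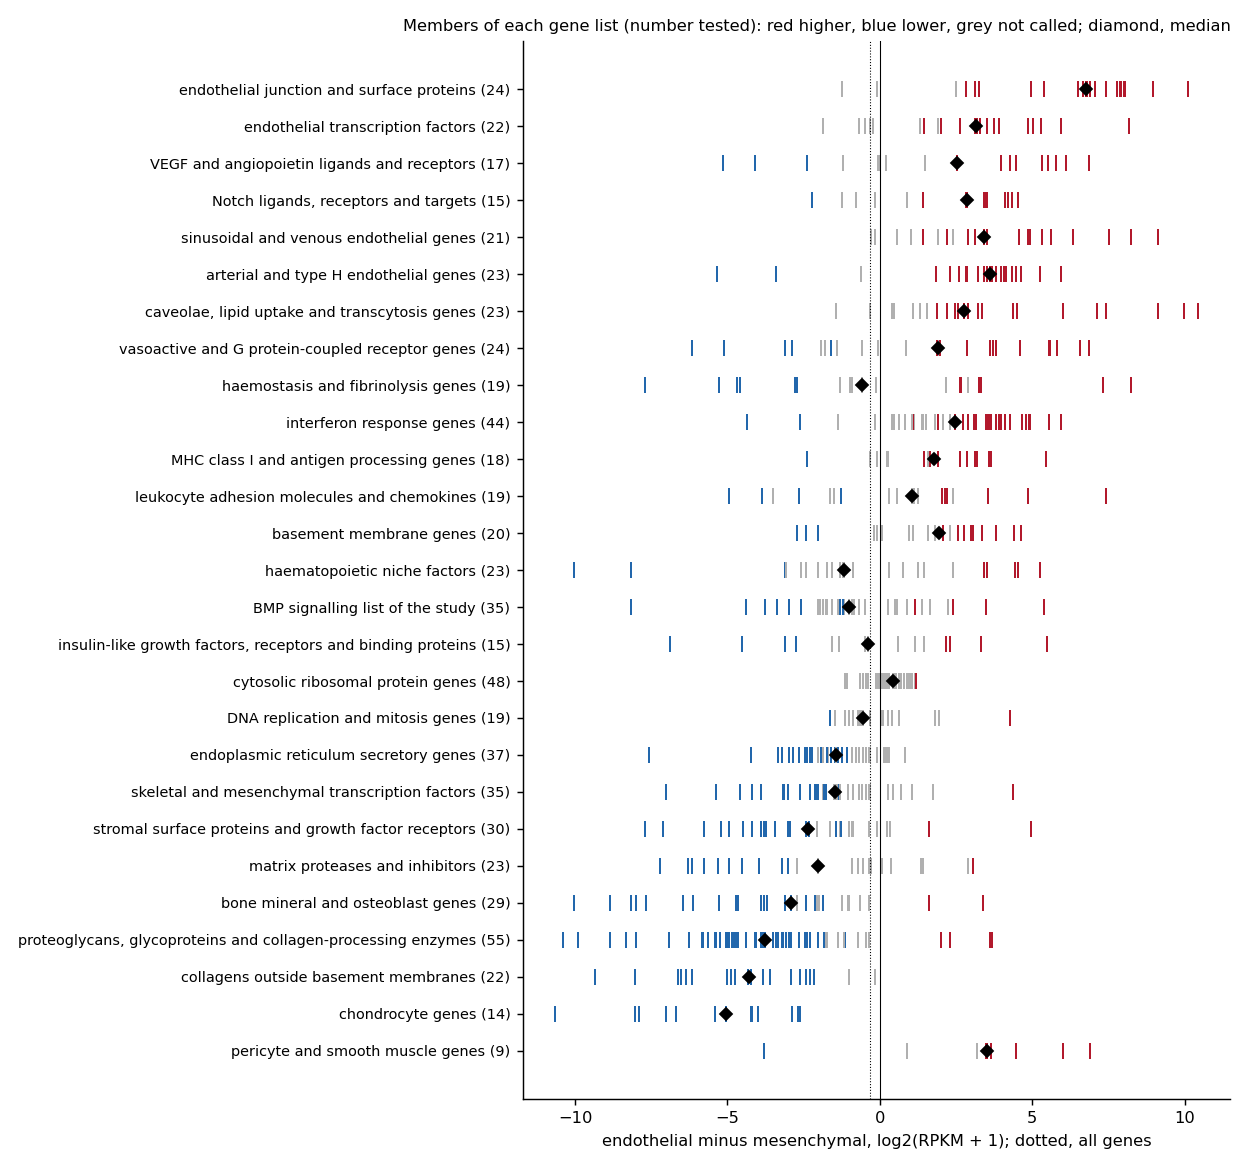
Log2 difference (endothelial minus mesenchymal, log2(RPKM + 1)) of each tested member of 27 gene lists, 1 tick per gene, with a diamond at the list's median and a dotted line at -0.31, the median of all 9952 genes. Of the lists drawn, junction and surface proteins have the highest median (6.77), and cartilage genes (-5.05), fibrillar collagens (-4.28) and other matrix genes (-3.76) the lowest.

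The comparisons with each mesenchymal population share the 5 endothelial libraries, so their values are given side by side. Against stromal progenitors 634 genes (6.37%) were called higher and 1003 (10.1%) lower in endothelial cells, and against osteoprogenitors 631 (6.34%) were higher and 1038 (10.4%) lower. Higher genes thus made up 38.7% of the calls against stromal progenitors and 37.8% of those against osteoprogenitors, and the former share was 49.0% with scaling by plain library totals and 48.8% after quantile normalization, the latter 26.8% with voom on recovered reads. The median of all genes was -0.26 and -0.31. The junction list had medians of 6.78 and 6.75, the fibrillar collagens -4.56 and -4.59 and the matrix list -3.59 and -3.81 against stromal progenitors and osteoprogenitors. The osteoblast list had medians of -0.63 and -4.70, with 9 and 23 of 29 genes lower, and the cartilage list -3.42 and -7.30. Bglap, as an example, had log2 differences of -1.05 (adjusted p = 0.396) from stromal progenitors and -9.52 (adjusted p = 5.84e-08) from osteoprogenitors in limma. Serpine2, the protease inhibitor, had -5.32 and -5.22.

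The same comparison was made in the 14 niche libraries of myeloma-bearing mice, which were not among the members. Earlier results of these data were known when the members were chosen. There, 839 of 10141 tested genes (8.27%) were called higher and 1146 (11.3%) lower in endothelial cells, and the median of all genes was -0.18. Higher genes made up 42.3% of these calls, and 53.6% with scaling by plain library totals. Of the 791 genes called higher in healthy mice, 761 were tested, 709 had the same sign, 473 were called again and 2 were called in the other direction. The 473 were 59.8% of the calls in healthy mice and 56.4% of those in myeloma-bearing mice. Of the 1362 genes called lower, 1317 were tested, 1217 had the same sign, 707 were called again (51.9% and 61.7% of the calls) and 2 were called in the other direction. The median difference of the genes called higher in healthy mice was 2.94 there and 2.25 in myeloma-bearing mice, and that of the genes called lower was -2.86 and -2.08. These genes were chosen for large values in healthy mice, so the medians are given as a description. Of the 10 genes with the largest rise in endothelial cells 10 were called again (7.43 to 10.30), and of the 10 lowest also 10 (-10.73 to -5.23).

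The difference itself was then compared between myeloma-bearing and healthy mice over 11713 genes. In limma 0 genes passed, 708 had an unadjusted p below 0.05, and the smallest adjusted p was 0.285. Spp1 went from -10.05 in healthy to -5.23 in myeloma-bearing mice, a change of 4.82 ± 1.42 (adjusted p = 0.529), and Kitl from 5.24 to 2.53, a change of -2.71 ± 1.16 (adjusted p = 0.775). Neither passed the test. In healthy and myeloma-bearing mice Emcn had log2 differences of 10.10 and 9.82, Cdh5 of 7.87 and 7.62 and Dcn of -10.39 and -10.65. Without endothelial library O of healthy mice 14 genes passed, and voom on recovered reads called 6 genes.

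**Figure D5:**
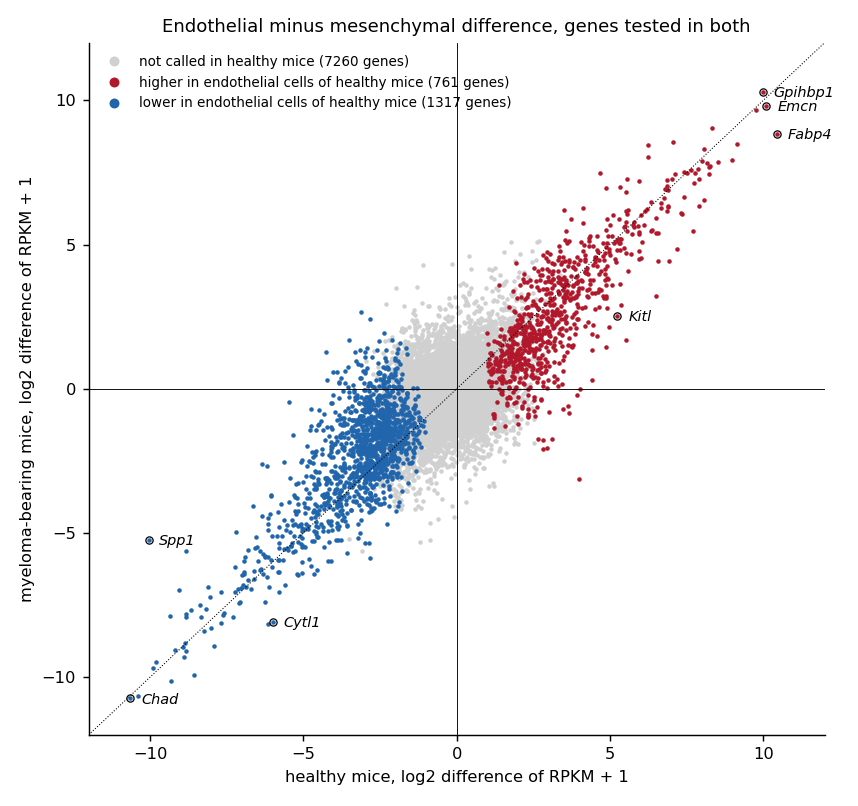
Log2 difference between endothelial and mesenchymal cells in healthy mice (horizontal) and in myeloma-bearing mice (vertical) for the 9338 genes tested in both, in red for the 761 called higher in healthy mice, blue for the 1317 called lower and grey for the 7260 not called. Most red points lie above 0 on the vertical axis (709) and most blue points below (1217).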

How the data were processed

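RNA-Seq was made from 100 sorted cells per library with SmartSeq2 and read as single ends. Per the labels and methods, the authors aligned the reads to GRCm38 with STAR 2.4.0, counted them with featureCounts of Subread 1.4.5-p1, kept expressed genes and deposited RPKM values calculated with edgeR. The strand is not stated, and 0 columns of values were left unused. Whole reads behind the RPKM were recovered for all 13260 genes (largest deviation from a whole number 1.86e-08, tolerance 0.0001), and the recovery was tested on simulated data. They gave depths and floors of 3 reads, which cover counting error only.

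Genes that exceeded 1 RPKM in 4 or more libraries of a fit were tested on log2(RPKM + 1) with limma 3.58.1 in R 4.3.3 (lmFit, eBayes with trend; simulated data were used to test it), with 3 group means and the contrast endothelial minus the mean of both mesenchymal groups. P-values were adjusted by the Benjamini-Hochberg method over all genes tested. They measure the spread between libraries within a group, and 4 or 5 libraries per group limit them. The labels do not say whether a letter shared by libraries of several cell types stands for the same mouse. Python 3.11.15 was used for the rest. Errors of log2 differences are standard errors. The members and gene lists were chosen with earlier results of these data known, and the BMP list is that of the study. Genes named were the markers, the 4 highest and 4 lowest called in each list with defining members that did not pass, the 10 largest and 10 most negative differences without overlap of libraries, and the 5 highest levels, and other members named were chosen after their values were seen. Deviations of same-letter libraries had correlations from -0.017 to 0.066, and those of different-letter libraries from -0.04 to 0.064. These ranges overlap and the values are small, so they cannot decide whether a letter stands for the same mouse. Letters were not taken as pairs because the labels do not state a pairing. Alternatives covered the pseudocount, filters, thresholds, scaling, array weights, trend, grouping, libraries in the fit, a block for letters, voom on recovered reads (span 0.2) and each library left out. Voom over all 38 libraries was added after seeing the data. Myeloma cell libraries entered only the fits over all 38 libraries. Individual values of 2 genes are not reported here.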

Additional observations from a re-analysis of the deposited data

Results flagged for a closer look

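Each set of values from 4 or 5 libraries was examined with Dixon's test, which sets the gap of an end value against the range. In 25 of 220 sets a library passed the 95% limit of this test. That limit assumes normal values, and some of the genes examined were named after their values were seen. The count is therefore not set against a chance rate. Values are in RPKM, and a gap made by 1 or 2 reads is within counting error.

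Among endothelial libraries, L was highest for Emcn (2722, others 1219 to 1508) and Flt4 (118, others 25.9 to 36.8) and lowest for Adipoq (0.0924, others 152 to 501). Library M was lowest for Mrc1 (22.5, others 95.1 to 160) and highest for Cd44 (13.5, others 0.0101 to 0.109), N was lowest for Vwf (0.00533, others 10.5 to 28.6), C was highest for Nt5e (9.18, others 0.0954 to 0.197) and O for Fap (7.98, others 0.0634 to 0.257). Nt5e, Cd44 and Fap are mesenchymal surface genes, and each was raised in a different endothelial library.

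Among stromal progenitors, C was highest for Tek (8.83, others 0.0399 to 0.327) and Alcam (1.13, others 0 to 0.00924). Library L was highest for Ecscr (0.580, others 0.0836 to 0.206), Hhex (0.0331, others 0, which is 1 read) and Fcer1g (9.97, others 0 to 0.408), N for Il2rg (6.62, others 0.288 to 0.581) and M for Kcnj8 (26.0, others 0.0535 to 0.139). Vwf was at 0 in N, where the others held 0.00507 to 0.00663, which is 1 read each.

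Among osteoprogenitors, N was highest for Pecam1 (2.19, others 0.115 to 0.261), Ecscr (11.6, others 0.0490 to 0.214), Tfpi (16.8, others 0.0628 to 0.394) and Gbp4 (2.26, others 0.0345 to 0.0360), and it had the most genes above 1 RPKM (8789, others 7660 to 7746). Library O was highest for Dll4 (0.0315, which is 2 reads, others 0) and Fap (271, others 149 to 162), and L for Igfbp3 (2.05, others 0.0253 to 0.156) and Gja4 (1.11, others 0). Without osteoprogenitor library N the log2 difference between endothelial and mesenchymal cells was 8.17 for Pecam1, 8.95 for Ecscr, 8.72 for Tfpi and 6.15 for Gbp4.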

How the results depend on the processing

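Repeat values were taken for 166 named genes, and uncalled genes such as Vcam1, Runx2 and Sp7 were not among them. Of these values 4154 kept their direction and side of the threshold, and 1 gained a call. Direction and side were kept in every refit by 135 genes, while 13 did not pass the filter in every refit. With stricter thresholds 25 of the 163 named genes that were called lost their calls. Calls were lost in 108 values, over 21 genes, most often for Adipoq, Insr, Rbpj, Acp5 and Il33. Voom ended, among others, the calls of Bglap (-5.42), Ifitm1 (-3.0), Ube2c (-3.13) and Ramp1 (-4.76), and voom over all 38 libraries those of Bglap (-5.49), Spp1 (-10.18), Col1a1 (-10.45), Chad (-10.99), Insr (3.78) and 1500015O10Rik (-9.40), at log2 differences that stayed large. Taking the mesenchymal libraries as 1 group ended, among others, those of Alcam, Fbln2, Ifitm1 and Ube2c, and array weights those of Acp5, Il33, Lifr, Plod1, Ramp1, Rbpj and Rps14. Crip1, not called at -0.13, changed sign with plain library totals (0.03), quantile normalization (0.73) and a replicate block (0.03), and ran from -0.57 to 0.14 with a library left out. The replicate block gave 2219, 1618, 1694 and 1960 calls against 2153, 1637 (stromal progenitors), 1669 (osteoprogenitors) and 1985 (myeloma-bearing mice), and letters are no known pairs. Stricter thresholds gave 896, 731, 701 and 887 calls. Voom over all 38 libraries, chosen after seeing the data, gave 3308, 2834 and 2681, and limma over all 38 gave 2484 against stromal progenitors. With a library left out, calls ranged from 1887 to 2129, 1378 to 1640 and 1231 to 1690. Higher genes made up 49.0% of the calls against stromal progenitors with plain library totals (38.7% as deposited) and 26.8% against osteoprogenitors with voom (37.8%).

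The difference between myeloma-bearing and healthy mice, with 0 calls, gave 25 with all 38 libraries, 1 with array weights, 1 with a pseudocount of 0.1, 6 with voom, 53 with voom over all 38 libraries and 0 to 14 with a library left out, 14 being without endothelial library O of healthy mice. The cause was not tested. The median distance from endothelial to mesenchymal libraries was 2.83 over all genes and 9.46 with a pseudocount of 0.1. With genes at 0 in a group set to their bound, 5 of 35 list medians moved, the sinusoidal one from 3.40 to 3.50 and that of 2 fat cell genes from 1.23 to -0.75, a change of sign. Each library held 100 cells, and a gene at 0 was below detection at its depth, not shown to be absent.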
